A study of Mus musculus with 12 samples.

Results

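The commitment of a cell to divide is set in G1 phase by cyclins, the activating subunits of cyclin-dependent kinases (CDKs), and by small proteins that hold the same kinases in check. The 10 genes described here were the D-type cyclins Ccnd1, Ccnd2 and Ccnd3, the E-type cyclins Ccne1 and Ccne2, the Cip/Kip inhibitors Cdkn1a and Cdkn1b, and the INK4 inhibitors Cdkn2a, Cdkn2b and Cdkn2c. They were taken by gene symbol from a table of 24458 rows, and all 10 passed the filter on low values that left 13122 rows for testing (at least 1 FPKM in at least 3 libraries). The rule used gene symbols only.

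D-type cyclins bind CDK4 and CDK6 and start the phosphorylation of the retinoblastoma protein RB, which releases E2F transcription factors. E-type cyclins, themselves E2F targets, then activate CDK2 at the start of S phase. INK4 proteins block CDK4 and CDK6, while Cip/Kip proteins mainly block CDK2 complexes. In small-cell lung cancer (SCLC) RB and p53 are typically lost together, which removes the usual target of the D-type cyclins and the usual activator of Cdkn1a.

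RNA was sequenced from 12 libraries of 4 mouse SCLC cell lines, 3 libraries for each of SMC#1, Non-SMC#1, SMC#2 and Non-SMC#2, to compare paired SMC and Non-SMC. The lines came from lung tumors of Rb1 L/L, Trp53 L/L mice on a mixed C57Bl/6, Balb-c and S129 background, which received Cre from an adenovirus given into the trachea at 6 to 8 weeks of age. For SMC lines the sort took NCAM-high cells with little or no CD44, which grew as floating spheres, and for Non-SMC lines it took NCAM-low, CD44-high cells, which grew attached to the dish. All 4 lines were untreated, were kept in RPMI1640 with serum, and carry the Rb1 and Trp53 deletions, so SMC and Non-SMC do not differ in the targeted genotype. The adenovirus drives Cre from a general promoter and so does not restrict the cell of origin. Each group holds 2 lines, and nothing states that the 3 libraries of each line are from separate cultures, so p-values measure the spread between libraries of these lines.

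Levels are in FPKM, fragment counts scaled to transcript length and sequencing depth, so they can be set side by side between genes. From the steps between low values, depth was estimated at 28600000 to 44100000 mapped fragments a library, with 10794 to 11536 rows at 1 FPKM or more. Spearman correlations within a line were 0.983 to 0.997. The neuroendocrine marker Chga averaged 452 and 227 FPKM in SMC#1 and SMC#2, against 0.0339 and 0 FPKM in Non-SMC#1 and Non-SMC#2, and Syp averaged 48.9 and 30.4 FPKM in SMC#1 and SMC#2, against 0.490 and 0.270 FPKM in Non-SMC#1 and Non-SMC#2. In Non-SMC libraries the sums of 7 mesenchymal and 7 fibroblast markers were high, at 3376 to 4183 FPKM and 392 to 1294 FPKM, against 4.91 to 32.1 FPKM and 1.79 to 5.23 FPKM in SMC libraries. The fibroblast markers did not move as 1: Thy1 averaged 1.04 and 2.00 FPKM in SMC#1 and SMC#2, against 0.00816 and 0 FPKM in Non-SMC#1 and Non-SMC#2, Dcn was higher in SMC#1 (3.18 FPKM) than in Non-SMC#1 (0.287 FPKM) but lower in SMC#2 (0.297 FPKM) than in Non-SMC#2 (27.3 FPKM), and Lum was under the filter. The RNA of the 2 sorting markers did not follow the sort alike: Cd44 averaged 0.204 and 0.141 FPKM in SMC#1 and SMC#2, against 78.5 and 85.9 FPKM in Non-SMC#1 and Non-SMC#2, whereas Ncam1 was lower in SMC#1 and SMC#2 (37.2 and 33.4 FPKM) than in Non-SMC#1 and Non-SMC#2 (50.9 and 45.6 FPKM). The part of these cell state differences, or of cells of another type, in the values below was not tested. In bulk RNA, fewer cells that express a gene and less RNA per cell cannot be told apart.

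Promoter sequence was given by RefSeq (GRCm38.p6) for 7 of the 10 genes, in 11 windows. Windows for Ccnd1, Ccnd2 and Ccne2 were not analysed here. Shown are the 250 bases before each start site at the Cdkn2a and Cdkn2b locus, because these neighboring genes had unlike SMC against Non-SMC differences, and at the Ccnd3 start whose window holds the motif of TEAD factors, the DNA-binding partners of TAZ and YAP. Each runs 5′ to 3′ in the direction of transcription, and capitals mark matches on either strand to an E2F motif (TTTNNCGC), a TEAD motif (GGAATG), an AP-1 motif (TGANTCA), a GC box (GGGCGG) or an E-box (CAGCTG or CACGTG).
Cdkn2a, start of the INK4A transcript, chr4:89282193-89282442, minus strand: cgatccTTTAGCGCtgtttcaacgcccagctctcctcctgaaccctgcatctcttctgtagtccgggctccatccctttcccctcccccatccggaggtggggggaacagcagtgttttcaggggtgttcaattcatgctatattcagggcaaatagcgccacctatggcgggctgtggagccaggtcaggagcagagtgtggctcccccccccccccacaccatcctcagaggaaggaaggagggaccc
Cdkn2a, start of the ARF transcript, chr4:89294620-89294869, minus strand: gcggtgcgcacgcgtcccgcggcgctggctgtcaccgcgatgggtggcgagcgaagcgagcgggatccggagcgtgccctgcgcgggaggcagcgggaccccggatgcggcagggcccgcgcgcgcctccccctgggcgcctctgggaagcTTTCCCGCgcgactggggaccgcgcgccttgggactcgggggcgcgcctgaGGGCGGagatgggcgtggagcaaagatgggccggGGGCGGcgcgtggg
Cdkn2b, chr4:89311033-89311282, minus strand: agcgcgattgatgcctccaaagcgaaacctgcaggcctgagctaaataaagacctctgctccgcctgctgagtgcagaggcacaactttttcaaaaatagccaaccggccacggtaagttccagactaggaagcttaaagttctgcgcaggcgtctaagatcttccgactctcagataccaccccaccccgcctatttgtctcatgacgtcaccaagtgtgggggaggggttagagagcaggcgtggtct
Ccnd3, chr17:47593217-47593466, plus strand: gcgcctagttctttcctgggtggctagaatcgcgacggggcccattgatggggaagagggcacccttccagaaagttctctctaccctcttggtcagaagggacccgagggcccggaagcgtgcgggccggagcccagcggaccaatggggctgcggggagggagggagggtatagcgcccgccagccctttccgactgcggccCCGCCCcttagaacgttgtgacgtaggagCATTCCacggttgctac
Both Cdkn2a windows held the E2F motif, once each: as TTTAGCGC at 244 to 237 bases before the INK4A start, and as TTTCCCGC at 99 to 92 bases before the ARF start. That motif was in 4.28% of 32851 promoter windows of the same length. The ARF window also held 2 GC boxes, a motif found in 32.7% of windows. The Cdkn2b window held none of the 6 motifs. The Ccnd3 window held the TEAD motif at 17 to 12 bases before the start, on the opposite strand, and a GC box, and the TEAD motif was in 12.6% of all windows. Among the other windows, Ccne1 held 4 GC boxes and Cdkn1b 1, while Cdkn1a, Cdkn2c and the other Ccnd3 start held 2, 3 and 2 in 1 window each. No member window held the AP-1 motif or either E-box. No matches overlapped. A match is a description of these letters and not evidence of binding.

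All 10 genes differed between SMC and Non-SMC lines, 5 higher and 5 lower in SMC (adjusted p under 0.05, limma, each pair of lines weighted equally). The background was high, since 87.1% of all rows tested were called in this comparison, 44.7% higher and 42.4% lower, so the number of calls is no result about these genes. The size of the differences was larger than usual: the median absolute difference in log2(FPKM + 1) was 2.11 over the 10 genes and 0.68 over all rows tested. The genes were chosen with earlier results of these data known, so this comparison of sizes is a description only. Between the 6 SMC and the 6 Non-SMC libraries 7 of the 10 genes did not overlap, against 55.0% of all rows. Ccne2, Cdkn1a and Cdkn1b were higher in every SMC library (28.0% of all rows were), and Ccnd1, Ccnd2, Ccnd3 and Cdkn2b were lower in every SMC library (27.1% of all rows were). With the line instead of the library as the unit, with only 1 residual degree of freedom, those 7 were still called (18.2% of all rows were), and the calls of Ccne1, Cdkn2a and Cdkn2c were lost.

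**Figure D1:**
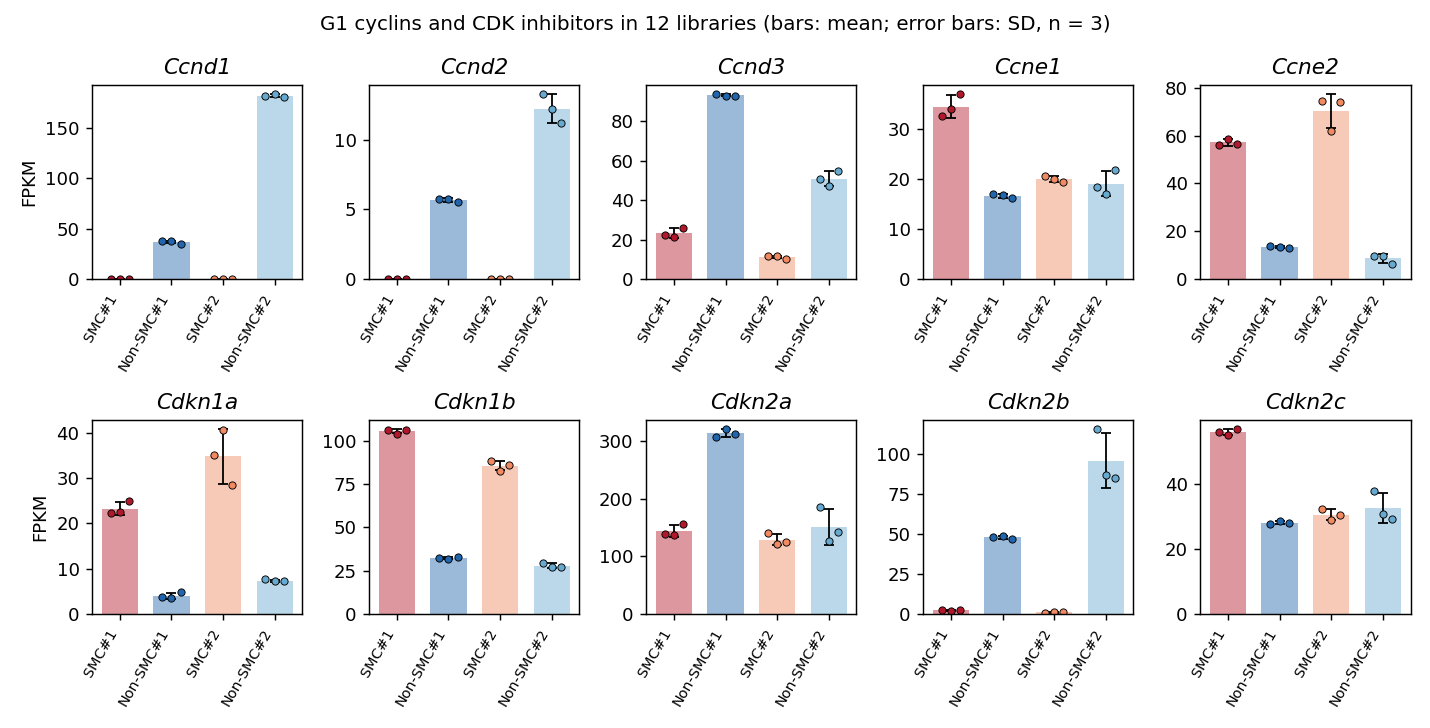
FPKM of each of the 10 genes in every library, by line on the x axis; points are libraries, bars are means and error bars are the SD of 3 libraries. Ccnd1, Ccnd2 and Cdkn2b lie near 0 in both SMC lines, while the SMC#1 bar of Ccne1 and Cdkn2c and the Non-SMC#1 bar of Cdkn2a each stand above the other 3 lines.

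All 3 D-type cyclins were lower in SMC lines, and Ccnd3 was the D-type cyclin RNA that remained there. Ccnd1 (chr7:152115836-152125830, mm9, as for all gene positions here) encodes cyclin D1, which responds to growth factors and adhesion in many cell types. It had 0.413, 0.273 and 0.277 FPKM in SMC#1, against 37.4, 37.9 and 35.3 FPKM in Non-SMC#1. It had 0.289, 0.294 and 0.336 FPKM in SMC#2, against 182, 184 and 181 FPKM in Non-SMC#2. All 6 SMC libraries were far below all 6 Non-SMC libraries, and the 2 Non-SMC lines were far apart from each other. The low SMC values rest on about 27.1 to 44.6 estimated fragments a library, so Ccnd1 RNA was scarce in SMC lines but above a floor of 3 fragments. The SMC mean was 0.313 ± 0.0535 FPKM and the Non-SMC mean 109.6 ± 79.7 FPKM (SD, n = 6 libraries of 2 lines each). The Non-SMC to SMC ratio of these means was 349.7, but it was 114.9 in pair 1 and 595.6 in pair 2. The fitted difference was -5.99 ± 0.04 on the log2(FPKM + 1) scale (SE, adjusted p = 2.58e-18, limma). This scale understates the change of genes with low values.

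Ccnd2 (chr6:127075727-127101066) encodes cyclin D2. It was listed at 0.00583, 0 and 0 FPKM in SMC#1, against 5.73, 5.76 and 5.51 FPKM in Non-SMC#1, and at 0 in all 3 libraries of SMC#2, against 13.2, 12.2 and 11.2 FPKM in Non-SMC#2. The single value above 0 in SMC corresponds to about 1.08 estimated fragments, so no fold change is given. The fitted difference was -3.23 ± 0.04 (adjusted p = 4.19e-16, limma), and the groups did not overlap. Over the settings tried this difference lay between -6.38 and -3.12, so its size depends on the processing far more than its SE shows. Ccnd2 overlaps the row 9330179D12Rik at its end, which averaged 0 FPKM in both SMC lines and under 0.07 FPKM in both Non-SMC lines.

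Ccnd3 (chr17:47642000-47736637) encodes cyclin D3. It had 22.4, 21.3 and 26.0 FPKM in SMC#1, against 93.8, 93.0 and 93.0 FPKM in Non-SMC#1, and 11.6, 11.7 and 10.4 FPKM in SMC#2, against 50.6, 47.2 and 55.0 FPKM in Non-SMC#2. The order of the lines was Non-SMC#1, Non-SMC#2, SMC#1 and SMC#2 from high to low, with no overlap between neighbors. The SMC mean was 17.2 ± 6.76 FPKM and the Non-SMC mean 72.1 ± 23.3 FPKM (SD, n = 6 libraries of 2 lines each). That is a 4.19-fold higher mean in Non-SMC. The fitted difference was -2.03 ± 0.06 (adjusted p = 1.12e-12, limma). Ccnd3 overlaps the row of Bysl at its end, and Bysl averaged 10.3 and 6.10 FPKM in SMC#1 and SMC#2, against 23.1 and 15.3 FPKM in Non-SMC#1 and Non-SMC#2.

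The makeup of the D-type cyclin pool differed by line as well as by group. Summed over the 3 genes it was 23.5 FPKM in SMC#1, against 136 FPKM in Non-SMC#1, and 11.5 FPKM in SMC#2, against 246 FPKM in Non-SMC#2 (means of 3 libraries). Ccnd3 made up 98.6% ± 0.402 of the sum in SMC#1 and 97.3% ± 0.393 in SMC#2, against 68.7% ± 0.736 in Non-SMC#1 and 20.7% ± 1.40 in Non-SMC#2 (n = 3, SD). Ccnd1 made up 27.1% ± 0.688 of the sum in Non-SMC#1 and 74.3% ± 1.18 in Non-SMC#2. Ccnd3 was nearly the whole pool in both SMC lines, and the 2 Non-SMC lines had opposite leading genes, Ccnd3 in the first and Ccnd1 in the second.

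**Figure D2:**
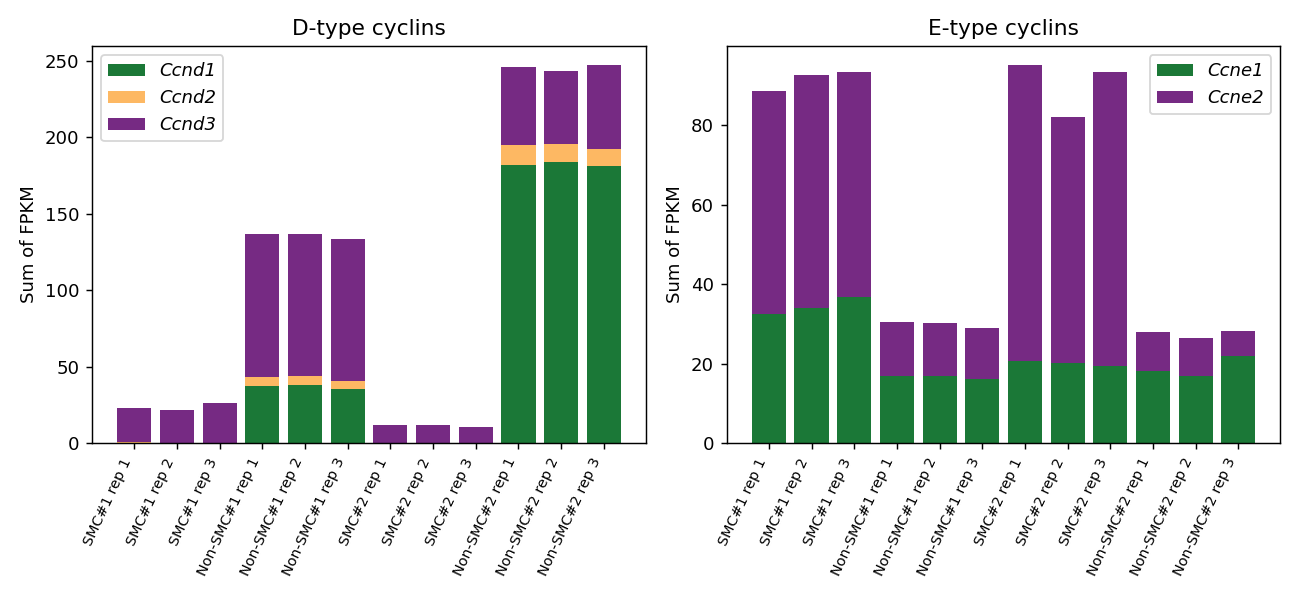
Sum of the FPKM of the D-type (left) and E-type (right) cyclins in each library, stacked by gene; the y axes differ in range. D-type sums are lowest in the SMC lines, where Ccnd3 is nearly the whole bar, and E-type sums are highest there, with Ccne2 the larger share.

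The E-type cyclins went the other way and were higher in SMC lines, with Ccne2 moving in both pairs and Ccne1 in pair 1. Ccne2 (chr4:11118498-11131926) encodes cyclin E2. It had 56.2, 58.6 and 56.5 FPKM in SMC#1, against 13.7, 13.4 and 12.8 FPKM in Non-SMC#1, and 74.6, 62.0 and 74.0 FPKM in SMC#2, against 9.70, 9.63 and 6.43 FPKM in Non-SMC#2. The lowest SMC library was more than 4 times the highest Non-SMC library. The fitted difference was 2.46 ± 0.09 (SE, adjusted p = 9.45e-12, limma). Ccne2 overlaps Ints8, an Integrator subunit gene, which averaged 13.9 and 11.1 FPKM in SMC#1 and SMC#2, against 16.99 and 15.3 FPKM in Non-SMC#1 and Non-SMC#2.

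Ccne1 (chr7:38883003-38892509) encodes cyclin E1. It had 32.4, 33.9 and 36.9 FPKM in SMC#1, against 16.9, 16.8 and 16.1 FPKM in Non-SMC#1, and 20.6, 20.05 and 19.4 FPKM in SMC#2, against 18.3, 16.9 and 21.8 FPKM in Non-SMC#2. SMC#1 stood above the other 3 lines, and SMC#2 and Non-SMC#2 overlapped. The difference over both pairs was 0.54 ± 0.06 (adjusted p = 1.78e-06, limma), but adjusted p was 0.274 with the line as the unit. Within pairs it was 1.01 ± 0.09 in pair 1 (adjusted p = 1.42e-07) and 0.08 ± 0.09 in pair 2 (adjusted p = 0.416, limma). The pair 2 difference became a call without Non-SMC#2 replicate 3 (0.18) and under quantile normalization (0.29) or scaling to a common FPKM sum (0.43).

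Summed, the 2 E-type cyclins had 91.5 FPKM in SMC#1, against 29.9 FPKM in Non-SMC#1, and 90.2 FPKM in SMC#2, against 27.6 FPKM in Non-SMC#2. The sums of the 2 SMC lines were close although their parts were not: Ccne2 made up 62.4% ± 1.66 of the sum in SMC#1 and 77.7% ± 1.92 in SMC#2, against 44.5% ± 0.261 in Non-SMC#1 and 31.2% ± 7.38 in Non-SMC#2 (n = 3, SD).

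The Cip/Kip inhibitors were both higher in SMC lines, and their differences were close in the 2 pairs. Cdkn1a (chr17:29227931-29237667) encodes p21, the best known transcriptional target of p53. It had 22.2, 22.6 and 24.8 FPKM in SMC#1, against 3.60, 3.48 and 4.70 FPKM in Non-SMC#1, and 35.1, 40.6 and 28.5 FPKM in SMC#2, against 7.58, 7.25 and 7.13 FPKM in Non-SMC#2. Every SMC library was above every Non-SMC library. The mean was 5.15-fold higher in SMC, and the fitted difference was 2.20 ± 0.08 (adjusted p = 2.26e-11, limma). Both groups carry the Trp53 deletion.

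Cdkn1b (chr6:134870419-134875543) encodes p27, which is held in check mostly by protein turnover. It had 106, 104 and 106 FPKM in SMC#1, against 32.0, 31.8 and 32.7 FPKM in Non-SMC#1, and 88.0, 82.7 and 86.0 FPKM in SMC#2, against 29.5, 27.1 and 26.8 FPKM in Non-SMC#2. The groups were far apart and the libraries of each line close together. The mean was 3.19-fold higher in SMC, with a fitted difference of 1.64 ± 0.04 (adjusted p = 4.78e-13, limma). Together the 2 genes summed to 129 FPKM in SMC#1, against 36.1 FPKM in Non-SMC#1, and to 120.3 FPKM in SMC#2, against 35.1 FPKM in Non-SMC#2, and Cdkn1b was the larger part in all 4 lines (71.2% to 89.2% of the line means).

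The INK4 genes did not move together. Cdkn2b (chr4:88952198-88956941) encodes p15, an inhibitor that TGF-beta signaling is known to induce. It had 2.09, 1.98 and 2.29 FPKM in SMC#1, against 48.3, 48.5 and 46.9 FPKM in Non-SMC#1, and 0.555, 1.04 and 0.900 FPKM in SMC#2, against 115.5, 86.5 and 85.0 FPKM in Non-SMC#2. The groups were widely separated, with a mean 48.6-fold higher in Non-SMC (22.6-fold in pair 1 and 115.1-fold in pair 2). The fitted difference was -4.84 ± 0.08 (adjusted p = 5.86e-15, limma). The SMC values rest on about 22.4 to 91.3 estimated fragments a library.

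Cdkn2a (chr4:88920377-88940523) encodes INK4A, an inhibitor of CDK4 and CDK6, and ARF, which blocks MDM2. The table has 1 row for both, so their RNAs cannot be told apart. It was the most abundant of the 10 genes in all 4 lines by line mean, except that Ccnd1 was higher in Non-SMC#2. It had 139, 137 and 156 FPKM in SMC#1, against 308, 322 and 312 FPKM in Non-SMC#1, and 140.0, 121 and 125 FPKM in SMC#2, against 186, 126 and 142 FPKM in Non-SMC#2. Non-SMC#1 stood above the other 3 lines, and SMC#2 and Non-SMC#2 overlapped. The difference over both pairs was -0.67 ± 0.09 (adjusted p = 1.02e-05, limma), with an adjusted p of 0.197 with the line as the unit, and over the settings tried it lay between -0.73 and -0.27. It was -1.12 ± 0.13 in pair 1 (adjusted p = 2.46e-06) and -0.22 ± 0.13 in pair 2 (adjusted p = 0.126, limma). The pair 2 difference was called without Non-SMC#2 replicate 2 (-0.34), and turned to 0.24 under quantile normalization, a call in the other direction, and to 0.15 with a common FPKM sum.

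Cdkn2c (chr4:109333481-109337977) encodes p18. It had 55.9, 54.8 and 56.7 FPKM in SMC#1, against 27.6, 28.6 and 27.8 FPKM in Non-SMC#1, and 32.1, 28.8 and 30.4 FPKM in SMC#2, against 37.8, 30.8 and 29.1 FPKM in Non-SMC#2. SMC#1 was high, and the other 3 lines lay within 27.6 to 37.8 FPKM. The difference over both pairs was 0.44 ± 0.06 (adjusted p = 1.60e-05, limma), with an adjusted p of 0.378 with the line as the unit. It was 0.97 ± 0.09 in pair 1 (adjusted p = 2.54e-07) and -0.09 ± 0.09 in pair 2 (adjusted p = 0.362, limma). In pair 2 the sign turned without Non-SMC#2 replicate 1 (0.02), under quantile normalization (0.20, called) and with a common FPKM sum (0.27, called).

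Cdkn2a and Cdkn2b lie 11.7 kb apart on chromosome 4, and Mtap, a methionine salvage enzyme gene and the next tested row, is 93.4 kb from Cdkn2a on the other side. Mtap averaged 11.1 FPKM in SMC#1, against 80.9 FPKM in Non-SMC#1, and 5.27 FPKM in SMC#2, against 81.0 FPKM in Non-SMC#2. Dmrta1, a DM-domain gene 398 kb from Cdkn2b, averaged 9.01 FPKM in SMC#1, against 0.02003 FPKM in Non-SMC#1, and 0.391 FPKM in SMC#2, against 0.0123 FPKM in Non-SMC#2. So the rows on either side of Cdkn2a were low in both SMC lines, while Cdkn2a itself stayed above 120 FPKM in every library. Beside Cdkn1b, the orphan receptor gene Gpr19, 22.5 kb away, averaged 9.72 and 11.6 FPKM in SMC#1 and SMC#2, against 2.99 and 2.24 FPKM in Non-SMC#1 and Non-SMC#2. The row 1190002F15Rik, 3.57 kb away on the other side of Cdkn1b, averaged 108 and 34.1 FPKM in SMC#1 and SMC#2, against 39.6 and 17.9 FPKM in Non-SMC#1 and Non-SMC#2. Beside Ccnd3, Taf8 averaged 7.11 and 8.33 FPKM in SMC#1 and SMC#2, against 6.79 and 7.69 FPKM in Non-SMC#1 and Non-SMC#2, and Med20 averaged 13.2 and 12.6 FPKM in SMC#1 and SMC#2, against 14.5 and 12.7 FPKM in Non-SMC#1 and Non-SMC#2. Bysl, which overlaps the end of Ccnd3, was lower in SMC lines, as given above.

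The nearest tested rows of the other genes varied. Beside Ccnd1, Oraov1 averaged 6.40 and 4.48 FPKM in SMC#1 and SMC#2, against 3.91 and 6.60 FPKM in Non-SMC#1 and Non-SMC#2, and Tpcn2 averaged 0.661 and 0.767 FPKM in SMC#1 and SMC#2, against 4.32 and 2.37 FPKM in Non-SMC#1 and Non-SMC#2. Beside Ccnd2, 9630033F20Rik averaged 2.46 and 2.54 FPKM in SMC#1 and SMC#2, against 3.61 and 3.98 FPKM in Non-SMC#1 and Non-SMC#2, and Parp11 averaged 0.00594 and 2.84 FPKM in SMC#1 and SMC#2, against 1.84 and 2.83 FPKM in Non-SMC#1 and Non-SMC#2. Tpcn2 and 9630033F20Rik were lower in both SMC lines, by fewer FPKM than Ccnd1 and Ccnd2. Beside Ccne1, Uri1 averaged 40.2 and 32.7 FPKM in SMC#1 and SMC#2, against 13.6 and 27.2 FPKM in Non-SMC#1 and Non-SMC#2, and 1600014C10Rik averaged 2.79 and 3.09 FPKM in SMC#1 and SMC#2, against 2.66 and 2.74 FPKM in Non-SMC#1 and Non-SMC#2. Beside Ccne2, Trp53inp1 averaged 10.1 and 2.14 FPKM in SMC#1 and SMC#2, against 0.919 and 1.63 FPKM in Non-SMC#1 and Non-SMC#2, and Dpy19l4 averaged 3.73 and 5.36 FPKM in SMC#1 and SMC#2, against 7.29 and 5.40 FPKM in Non-SMC#1 and Non-SMC#2. Uri1 and Trp53inp1 were, like Ccne1, highest in SMC#1. Beside Cdkn1a, Srsf3, a splicing factor gene, averaged 79.5 and 80.3 FPKM in SMC#1 and SMC#2, against 40.4 and 54.4 FPKM in Non-SMC#1 and Non-SMC#2, and Rab44 averaged 1.11 and 0.217 FPKM in SMC#1 and SMC#2, against 0 and 0.0122 FPKM in Non-SMC#1 and Non-SMC#2. Beside Cdkn2c, Rnf11 averaged 39.4 and 29.8 FPKM in SMC#1 and SMC#2, against 41.4 and 60.7 FPKM in Non-SMC#1 and Non-SMC#2, and Faf1 averaged 22.2 and 23.1 FPKM in SMC#1 and SMC#2, against 17.2 and 17.6 FPKM in Non-SMC#1 and Non-SMC#2.

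**Figure D3:**
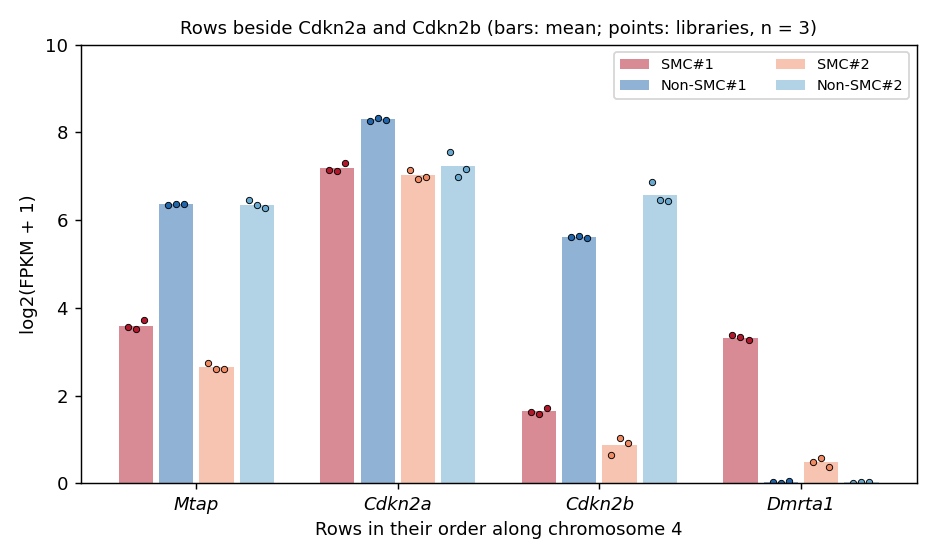
log2(FPKM + 1) of Cdkn2a, Cdkn2b and the nearest tested row on either side, in the order in which they lie on chromosome 4; bars are means of 3 libraries, points are libraries and colors are the 4 lines. Mtap and Cdkn2b are lower in both SMC lines, whereas Cdkn2a is above 6 in every library.

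The 2 pairs were then compared with each other. In pair 1 (SMC#1 against Non-SMC#1) all 10 genes were called, 5 in each direction, where 80.4% of all rows were called (43.9% higher, 36.5% lower). In pair 2 (SMC#2 against Non-SMC#2) 3 were higher and 4 lower, where 82.0% of all rows were called (39.2% higher, 42.8% lower), and the 3 without a call were Ccne1, Cdkn2a and Cdkn2c. The difference between the pairs was itself called for 7 genes, 5 above 0 and 2 below, where 60.6% of all rows were called (38.2% above, 22.5% below). For Ccnd1 the pair 1 difference was -4.84 and the pair 2 difference -7.13 (difference of differences 2.29 ± 0.08, adjusted p = 1.17e-10, limma). For Ccnd2 they were -2.73 and -3.72 (0.99 ± 0.09, adjusted p = 4.79e-07), and for Cdkn2b -3.97 and -5.72 (1.75 ± 0.17, adjusted p = 1.39e-06). These 3 genes were lower in both SMC lines, and by more in pair 2, whose Non-SMC line had the higher level. For Ccne2 the pair differences were 2.02 and 2.91 (-0.89 ± 0.17, adjusted p = 7.22e-04). Ccne1 (0.93 ± 0.12, adjusted p = 2.11e-05), Cdkn2a (-0.90 ± 0.18, adjusted p = 7.01e-04) and Cdkn2c (1.06 ± 0.12, adjusted p = 7.77e-06) had their difference in pair 1.

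**Figure D4:**
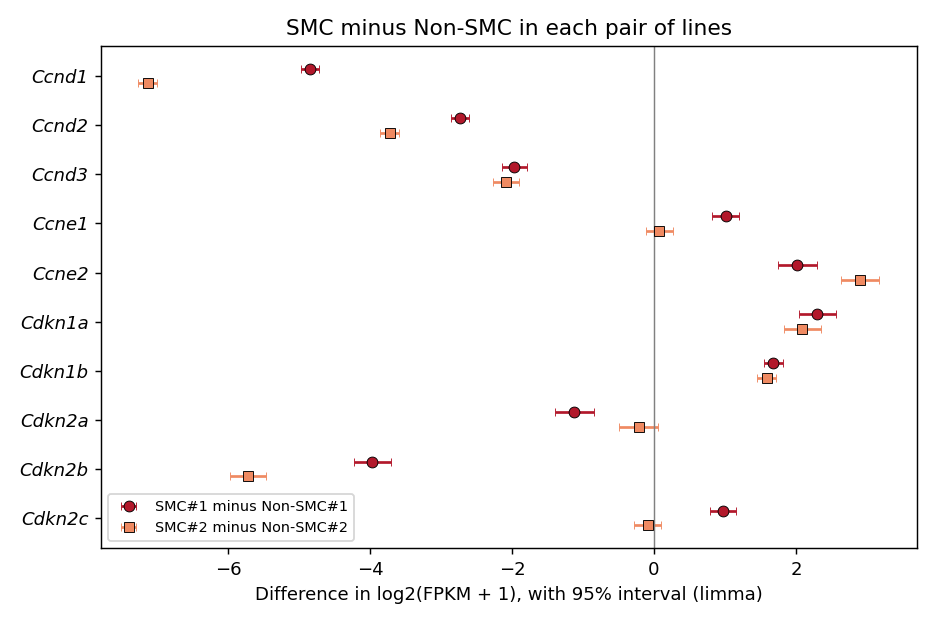
Difference in log2(FPKM + 1) with its 95% interval, SMC#1 minus Non-SMC#1 (circles) and SMC#2 minus Non-SMC#2 (squares), for each gene. Ccnd3, Cdkn1a and Cdkn1b have overlapping intervals in the 2 pairs, and the pair 2 intervals of Ccne1, Cdkn2a and Cdkn2c include 0.

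For Ccnd3, Cdkn1a and Cdkn1b no difference between the pairs was called. Their differences of differences were 0.12 (95% interval -0.13 to 0.38), 0.21 (-0.15 to 0.58) and 0.09 (-0.10 to 0.28), and each changed sign under at least 2 of the other scalings. These intervals leave room for modest differences between the pairs.

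Within a group the lines were not alike. Between SMC#1 and SMC#2, 5 of the 10 genes were higher and 1 lower in SMC#1, where 56.8% of all rows were called (36.2% higher, 20.6% lower). That count is near the share of all rows and is no result about these genes. Ccnd3 was higher in SMC#1 by 0.98, Cdkn2c by 0.86, Cdkn2b by 0.78, Ccne1 by 0.75 and Cdkn1b by 0.30, and Cdkn1a fell by 0.55 in SMC#1 against SMC#2 (log2 scale). The Cdkn1b call between the SMC lines was lost under quantile normalization and with a common FPKM sum. Between Non-SMC#1 and Non-SMC#2, 4 genes were higher and 4 lower in Non-SMC#1, where 57.3% of all rows were called (25.8% higher, 31.5% lower). Cdkn2a (1.06), Ccnd3 (0.86), Ccne2 (0.60) and Cdkn1b (0.21) were higher in Non-SMC#1, and Ccnd1 (-2.28), Ccnd2 (-0.98), Cdkn2b (-0.97) and Cdkn1a (-0.76) were lower there. Within a line the coefficient of variation was 0.501% to 21.7% (median 5.33%) over the 35 pairs of gene and line with a mean of 1 FPKM or more. The smallest of these differences are not clearly larger than the widest of that spread.

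For the kinases that these proteins act on, 2 of 3 were higher and 1 lower in SMC. In this comparison 44.7% of all rows were called higher and 42.4% lower, so these counts are no result about the kinases. Cdk6, a partner of D-type cyclins, averaged 0.183 FPKM in SMC#1, against 9.30 FPKM in Non-SMC#1, and 0 FPKM in SMC#2, against 22.6 FPKM in Non-SMC#2 (difference -3.84 ± 0.06, adjusted p = 1.87e-15, limma). As with Ccnd1 and Ccnd2, both SMC lines were near 0 and Non-SMC#2 was above Non-SMC#1. Cdk4, the other D-cyclin partner, averaged 312 FPKM in SMC#1, against 239 FPKM in Non-SMC#1, and 324 FPKM in SMC#2, against 276 FPKM in Non-SMC#2 (0.30 ± 0.07). Cdk2, the partner of E-type cyclins, averaged 32.6 FPKM in SMC#1, against 25.1 FPKM in Non-SMC#1, and 25.8 FPKM in SMC#2, against 20.4 FPKM in Non-SMC#2 (0.34 ± 0.05).

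Of the remaining CDK inhibitor rows 3 were higher and 1 lower in SMC, beside 44.7% and 42.4% of all rows. Cdkn1c, which encodes the Cip/Kip protein p57, averaged 52.8 FPKM in SMC#1, against 0.116 FPKM in Non-SMC#1, and 23.7 FPKM in SMC#2, against 0.899 FPKM in Non-SMC#2 (4.64 ± 0.07, adjusted p = 8.64e-16, limma). All 3 Cip/Kip genes were higher in SMC. Cdkn2d, the INK4 gene of p19, was on 2 rows with differences of 0.73 and 0.71, and the phosphatase gene Cdkn3 had a difference of -0.28, whose call was lost with a common FPKM sum.

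In the RB and E2F families 9 of 13 genes were higher and 3 lower in SMC, where 44.7% of all rows were called higher and 42.4% lower, with a median difference of 0.62, against 0.02 over all rows tested. E2f2 had the largest rise (5.23 ± 0.05), averaging 19.1 FPKM in SMC#1, against 1.40 FPKM in Non-SMC#1, and 617 FPKM in SMC#2, against 2.66 FPKM in Non-SMC#2. Rbl1, which encodes the RB relative p107, had the largest fall (-0.95 ± 0.05). Rb1 RNA averaged 3.86 and 3.05 FPKM in SMC#1 and SMC#2, against 0.956 and 0.745 FPKM in Non-SMC#1 and Non-SMC#2, and Trp53 RNA 7.32 and 7.42 FPKM in SMC#1 and SMC#2, against 3.37 and 3.36 FPKM in Non-SMC#1 and Non-SMC#2. Gene-level FPKM includes the exons outside the deleted part, so it is no check of either deletion. With the line as the unit the calls of E2f2 (adjusted p = 0.0604), Rb1, Trp53 and Rbl1 were lost.

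Of 11 tested genes that act upstream of Cdkn1a and Cdkn2a, 9 were higher and 1 lower in SMC, with a median difference of 0.77, beside the same 44.7% and 42.4% of all rows. The list mixes activators and repressors, so this count and median give no direction for Cdkn1a or Cdkn2a. With the line as the unit, Tbx3 kept its call among the genes of this list named here, and Trp53 and Ets1 did not. Tbx3, a T-box repressor of ARF, had the largest rise (2.28 ± 0.06), averaging 74.5 FPKM in SMC#1, against 8.23 FPKM in Non-SMC#1, and 21.7 FPKM in SMC#2, against 6.94 FPKM in Non-SMC#2. Ets1, an activator of INK4A transcription, had the fall (-0.55 ± 0.04), with 5.48 FPKM in SMC#1, against 19.1 FPKM in Non-SMC#1, but 30.1 FPKM in SMC#2, against 20.5 FPKM in Non-SMC#2, so its 2 pairs went opposite ways.

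Of 13 genes for the turnover of G1 cyclins and inhibitors 4 were higher and 7 lower over both pairs (44.7% and 42.4% of all rows), but 6 were higher and 4 lower in pair 1 (43.9% and 36.5% of all rows), and 2 higher and 9 lower in pair 2 (39.2% and 42.8% of all rows). The list held Rbx1, the RING subunit of cullin ligases, at 0.75 ± 0.08 and Fbxo4, an F-box protein of cyclin D1 turnover, at -1.65 ± 0.05. Of 6 genes of CDK activation 2 were higher and 2 lower over both pairs (44.7% and 42.4% of all rows). The phosphatase gene Cdc25a was at 0.97 ± 0.04 and the kinase gene Cdk7 at -0.19 ± 0.05, which turned to 0.03 with a common FPKM sum. Of 12 S phase and mitosis markers 4 were higher and 3 lower over both pairs (44.7% and 42.4% of all rows). Mki67 was at 0.81 ± 0.15 and Cdc20 at -0.47 ± 0.06. In pair 1, 4 of the 12 markers were higher and 4 lower (43.9% and 36.5% of all rows). In pair 2, 7 of the 12 markers were higher and 3 lower (39.2% and 42.8% of all rows). Their summed level was 845 to 948 FPKM in SMC libraries and 790 to 890.1 FPKM in Non-SMC libraries, which overlapped. The total over all rows ran from 289158 to 427958 FPKM a library, and these sums were not rescaled for it. With the line as the unit, 3 of the 19 pathway rows named here kept their call, Cdk6, Cdkn1c and Tbx3.

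The rows whose profiles over the 12 libraries were most like each member, by the root mean square (RMS) difference of centered log2(FPKM + 1) values, are given as a description, since the points share 4 lines. Ccnd1 was nearest to Ly6c1 (RMS 0.24) and Glipr1 (0.33), Ccnd2 to Fcrlb (0.09) and Fez2 (0.12), and Ccnd3 to Flot1 and Nxn (0.13 each). Ccne1 was nearest to Mknk2 (0.06) and Wwox (0.08), and Ccne2 to Tmem229a (0.16) and Rgs17 (0.19). Cdkn1a was nearest to Tmem51 (0.15) and Ppfibp2 (0.16), and Cdkn1b to Atp6v1b2 (0.08) and Gm10406 (0.09). Cdkn2a was nearest to Bpgm (0.12) and Oog1 (0.14), Cdkn2b to Pcolce2 (0.22) and Pmepa1 (0.28), and Cdkn2c to Ginm1 and Fbxo8 (0.08 each). Centering removes the level, so a near row can be far from the member in FPKM. Oog1 averaged 0 FPKM in SMC#1 and SMC#2, against 1.42 and 0.0812 FPKM in Non-SMC#1 and Non-SMC#2, so its likeness to Cdkn2a rests on values near 0. Atp6v1b2, a proton pump subunit gene, matched Cdkn1b in level too, at 106 and 94.4 FPKM in SMC#1 and SMC#2, against 33.7 and 31.4 FPKM in Non-SMC#1 and Non-SMC#2. No member was among the 2 rows nearest to another member.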

How the data were processed

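Total RNA was extracted with TRIzol and sequenced as paired reads of 150 bases in 12 libraries. Per the labels, the authors aligned reads with STAR 2.6.1b and used DESeq2, and they deposited FPKM per gene without counts; the program behind the FPKM is, in the sources used here, not given. The notes name mm10, but the deposited coordinates are those of mm9 (of 22882 rows matched by symbol to GRCm38, 2531 overlapped), so gene positions are mm9 and promoter windows GRCm38.p6. The paper's data availability text ties the series to another experiment on SMC, and the labels were followed. Depth was estimated from the FPKM steps of 2447 genes with 1 transcript, assuming fragments of 300 bases.

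Rows that reached 1 FPKM in 3 or more libraries were tested on log2(FPKM + 1) with limma 3.58.1 (trend, robust) in R 4.3.3, which needs no counts, with a mean for each line and Benjamini-Hochberg adjustment over all 13122 rows (two-sided, adjusted p under 0.05). Scripts were tested on simulated data. Alternatives were the pseudocount, the filter, 3 scalings, limma without options, a replicate block, each library left out, and the line as the unit. The members and lists were chosen with earlier results of these data known. All 10 members were named, with Cdk2, Cdk4, Cdk6, Cdkn1c, Cdkn2d, Rb1, Trp53, the largest called difference in each direction in each pathway list, the 2 rows most alike and the nearest tested rows on the chromosome. Of 84 ribosomal protein rows 4 were listed at 0 in all libraries and 5 in some. Which genes these were was not examined. A 0 may be a failed estimate or a gene without RNA, and these counts cannot tell which. Lists of immune, endothelial, erythroid and airway markers were also summed. Immune, endothelial and erythroid sums were at most 2.27, 0.367 and 0.782 FPKM in SMC libraries and 4.97, 0.230 and 0.134 FPKM in Non-SMC libraries. Airway sums were 7.16 to 53.3 FPKM in SMC libraries and 0.473 to 3.71 FPKM in Non-SMC libraries. They did not stand for a whole set of airway genes. Sftpc averaged 45.3 FPKM in SMC#1 but 0.482 FPKM in SMC#2. Foxj1 averaged 1.33 and 4.58 FPKM in SMC#1 and SMC#2, against 0.00910 and 2.31 FPKM in Non-SMC#1 and Non-SMC#2. Scgb1a1 and Sftpb were under the filter. The summed level of the neuroendocrine list is not reported here.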

Additional observations from a re-analysis of the deposited data

Results flagged for a closer look

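The SMC against Non-SMC difference was not the same in the 2 pairs for 7 of the 10 genes. A difference between the pairs was called for 60.6% of all rows, so the count is no result about these genes. The pair 1 difference minus the pair 2 difference, on the log2(FPKM + 1) scale, was 2.29 for Ccnd1, 0.99 for Ccnd2, 0.93 for Ccne1, -0.89 for Ccne2, -0.90 for Cdkn2a, 1.75 for Cdkn2b and 1.06 for Cdkn2c, each with an adjusted p under 0.05 in limma. Each pair is 1 SMC line and 1 Non-SMC line, so a difference between pairs cannot be told apart from a difference between single lines.

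In 20 sets of a gene and a group of 6 libraries, 2 had a library far from the other 5. Chance gives about 1 set in 20 only where the 6 libraries form 1 uniform group. Each set joins 2 lines, whose difference widens the range, so that rate does not hold here. In Non-SMC libraries Cdkn2c was 37.8 FPKM in Non-SMC#2 replicate 1, and the gap to the next library was 0.687 of the whole range. In SMC libraries Ccnd2 was 0.00583 FPKM in SMC#1 replicate 1 with the other 5 at 0, so that gap was 1 of the range, and it rests on about 1.08 estimated fragments.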

How the results depend on the processing

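Over 21 alternatives the SMC against Non-SMC difference of each of the 10 genes kept its direction, and its call except for Ccne1, Cdkn2a and Cdkn2c with the line as the unit. That setting called 2389 of all rows in place of 11430. The size of the difference moved for the genes near 0 in SMC lines. It lay between -7.64 and -5.83 for Ccnd1, -6.38 and -3.12 for Ccnd2, and -5.57 and -4.65 for Cdkn2b. In the other comparisons differences near 0 changed sign. For SMC#1 against SMC#2, Ccnd1 turned to -0.0151 (median-ratio), -0.0144 (quantile), -0.0270 (common FPKM sum) and -0.0348 without SMC#1 replicate 1 (up to 0.0400 without another library), and Cdkn2a to -0.0045 (common sum). For the difference between pairs, Ccnd3 turned to -0.0398 (median-ratio) and -0.0868 (common sum), Cdkn1a to -0.0522 (quantile) and -0.00926 (common sum), and Cdkn1b to -0.0744, -0.0832 and -0.13 (median-ratio, quantile, common sum). In pair 2, Cdkn2a turned to 0.24 (quantile) and 0.15 (common sum), and Cdkn2c to 0.20 (quantile), 0.27 (common sum) and 0.0217 without Non-SMC#2 replicate 1 (down to -0.16 without another library). Cdk7 turned to 0.0271 (common sum). Ccne2 was called lower in SMC#1 than in SMC#2 under median-ratio (-0.41), quantile (-0.50) and common sum (-0.45) scaling, and without SMC#2 replicate 2 (-0.37), Non-SMC#2 replicate 1 or Non-SMC#2 replicate 3 (-0.29 each). Without Non-SMC#2 replicate 2 Ccne1 was called between the Non-SMC lines (-0.25), as was Cdkn2c without Non-SMC#2 replicate 3 (-0.28). The cause was not tested. The common FPKM sum moved the median SMC against Non-SMC difference of all rows from 0.02 to 0.25 and the share of calls that were higher from 51.4% to 61.4%. Leaving out 1 library gave 11229 to 11631 calls among all rows and 10 among the 10 genes. Of 18 correlations of the deviations of same-numbered replicates, 4 were over 0.1 (-0.382 to 0.355). Deviations of differently numbered replicates were not correlated, so this check cannot decide whether same-numbered replicates pair. With a replicate block 11426 rows and 10 of the 10 genes were called, and no call among the 10 genes changed. Depth limits Ccnd1, Ccnd2 and Cdkn2b in SMC lines, at under 100 estimated fragments a library.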
